A study of Mus musculus with 6 samples.

Results

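The S100 genes encode small proteins with paired EF-hand loops, and most of these proteins bind calcium. The 10 described here are S100a1, S100a4, S100a6, S100a8, S100a9, S100a10, S100a11, S100a13, S100a14 and S100a16, found by symbol among the 52636 gene rows of the deposited table. Of these, 8 reached the level needed for a test, and S100a8 and S100a9 did not. RNA was sequenced from EpCAM-high cells of the thoracic oesophagus of K5:Smo mice (Krt5-CreERT2:R26SmoM2/EYFP) in 2 groups of 3 libraries. The ibuprofen group drank ibuprofen at 0.6 g per l, and the untreated group did not. In both groups Cre activity was limited to cells that use the Krt5 promoter, tamoxifen had been given 12 weeks earlier, and SmoM2, a constantly active Smoothened, was switched on. No library analysed here came from mice without SmoM2, so the comparison asks only how ibuprofen mice differed from untreated mice within this model. Titles of the ibuprofen samples omit the word epithelial that those of the untreated samples carry.

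Most S100 proteins work as dimers that expose a binding surface when calcium rises and then hold on to annexins, cytoskeletal proteins or enzymes. Some are also secreted and act on receptors of other cells, S100a8 and S100a9 above all, which form the antimicrobial complex calprotectin. In stratified epithelia the family is known for members that mark basal or differentiating layers and for alarm members that appear in inflamed or wounded epithelium. Ibuprofen inhibits the cyclooxygenases that make prostaglandins.

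The cells carried the epithelial markers of their label. All 12 markers of oesophageal epithelium, led by Krt5 and Krt13, were tested, and their summed level was 12440 to 13730 CPM (reads scaled to the same total in each library) in ibuprofen libraries and 14570 to 16170 CPM in untreated libraries. The ranges of the groups did not overlap. Fold changes on the log2(CPM + 1) scale, ibuprofen minus untreated, were negative in 8 of the 12 and positive in 4, with 0 calls. Of all tested genes, 43.7% had negative values and 0.521% were called. Krt14, Krt15 and Itgb4 were lower with ibuprofen without overlap, as were 8.73% of all tested genes. Epcam had 259.2 ± 22.7 CPM with ibuprofen and 261.5 ± 26 CPM untreated (SD, n = 3 each). Libraries held an estimated 6361294 to 8764370 reads in genes, so that 1 read was worth 0.114 to 0.157 CPM. Libraries differed in how levels followed the GC content of transcripts. Across genes, Spearman's rho of a library's offset from the average level with GC content was -0.25, -0.32 and -0.09 in ibuprofen replicates 1, 2 and 3. It was 0.47, 0.19 and -0.28 in untreated replicates 1, 2 and 3.

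The family split into 3 tiers of expression in these cells, and both groups had the same tiers. S100a11, S100a6, S100a10, S100a14 and S100a16 each exceeded 130 CPM in every library, S100a13, S100a1 and S100a4 lay between 1.90 and 9.29 CPM, and S100a8 and S100a9 stayed at or below 0.4 CPM. The first 5 genes made up 98.24% to 98.6% of the reads of the 10 genes. Together the 10 took 0.11%, 0.115% and 0.105% of all reads in ibuprofen replicates 1, 2 and 3 and 0.133%, 0.13% and 0.112% in untreated replicates 1, 2 and 3. The ibuprofen values overlapped the lowest untreated one. In bulk RNA, fewer cells of a type and less RNA per cell cannot be told apart.

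**Figure D1:**
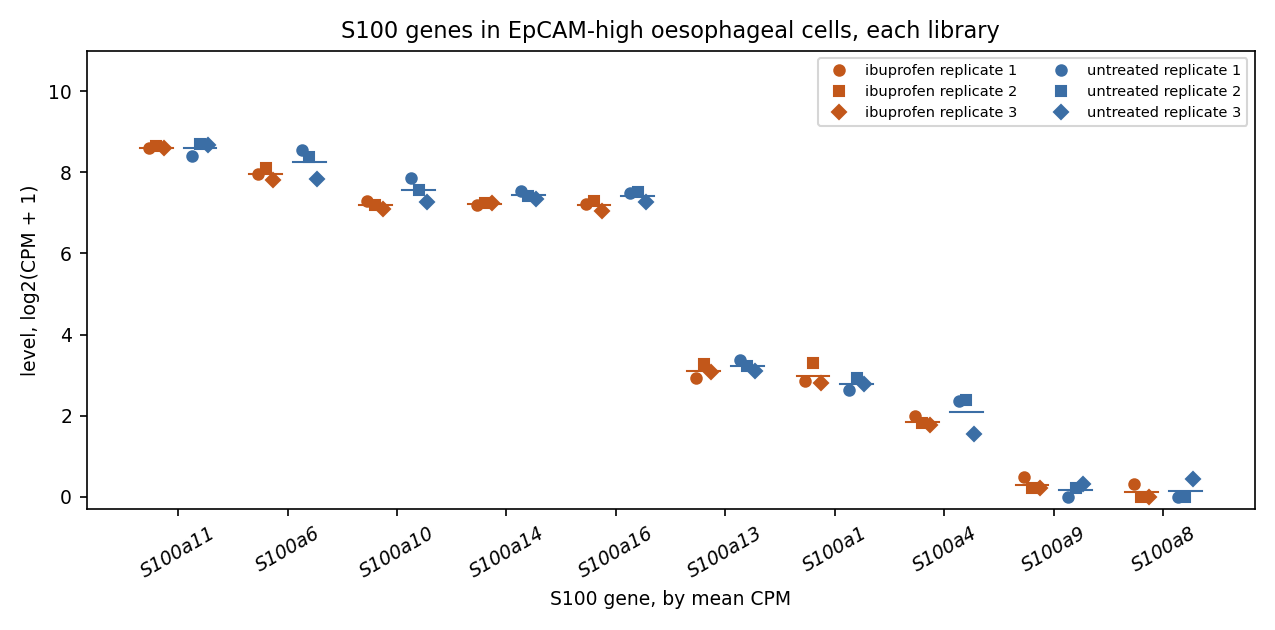
Levels of the 10 S100 genes as log2(CPM + 1) in each of 3 ibuprofen and 3 untreated libraries, with short lines for group means on that scale. The 5 abundant genes sit above 7 on this scale, S100a13, S100a1 and S100a4 between 1.5 and 3.5, and S100a9 and S100a8 below 0.6.

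Levels per kilobase of annotated exon give an order between genes. Length was that of all annotated exons of a gene merged, so the order also depends on the annotation. S100a11, which binds annexin A1, was first, at 764 ± 13.7 CPM per kb with ibuprofen and 759 ± 82 CPM per kb untreated (SD, n = 3 each). S100a6, known as calcyclin, followed at 182 ± 19.3 and 226 ± 54.5 CPM per kb in ibuprofen and untreated libraries. Per kilobase, S100a11 was 2.44 to 4.83 times S100a6 in single libraries, with merged lengths of 0.511 kb for S100a11 and 1.367 kb for S100a6. In CPM the means over all libraries were 389 and 279, and S100a6 was the higher in untreated replicate 1 (371 against 339 CPM). S100a10, the annexin A2 partner p11, had 121 ± 8.87 CPM per kb with ibuprofen and 158 ± 32.2 untreated. S100a16 had 90.0 ± 8.22 with ibuprofen and 106 ± 9.22 CPM per kb untreated, and S100a14 86.1 ± 2.03 with ibuprofen and 99.5 ± 6.9 CPM per kb untreated. S100a16 exceeded S100a14 in 5 of 6 libraries, a gap within their spread. S100a13 (10.6 ± 1.44 with ibuprofen and 11.8 ± 1.19 CPM per kb untreated) and S100a1 (10.1 ± 2.3 and 8.45 ± 0.973 CPM per kb in the same groups) also lay within each other's spread. S100a4 was the lowest tested member at 4.48 ± 0.502 with ibuprofen and 5.85 ± 2.25 CPM per kb untreated. Averaged over libraries, S100a11 was 148 times S100a4 per kilobase.

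All 10 genes lie on chromosome 3 (GRCm38, GENCODE M21), and neighbours there had very different levels. S100a1 (chr3:90511034-90514392, minus strand) and S100a13 (chr3:90514435-90524581, plus strand) are arranged head to head with 42 bases between them, and both were low. S100a14 (chr3:90526856-90528837) and S100a16 (chr3:90537254-90543151), the next genes along, were more than 10 times as high in CPM. S100a4 (chr3:90603771-90606045) and S100a6 (chr3:90612882-90624181) follow, separated by S100a5, which had at most 0.2 CPM in any library and ends 1101 bases before S100a6. S100a8 (chr3:90668978-90670035) and S100a9 (chr3:90692632-90695721, minus strand) close this cluster. S100a11 (chr3:93520488-93526287) and S100a10 (chr3:93555080-93564643) form a second site, 2820 kb farther along, and both were abundant. The gene model of S100a4 overlaps Gm42674 on the same strand, so reads there could be assigned to either or to neither.

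**Figure D2:**
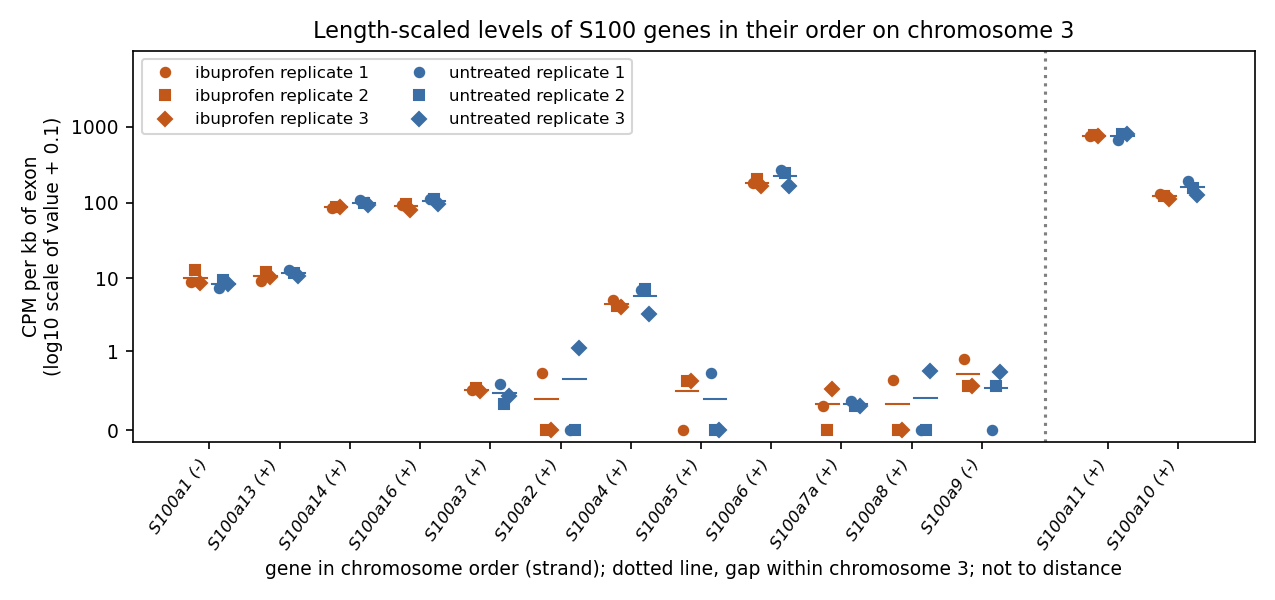
CPM per kb of exon, on a log10 scale of the value plus 0.1, for the 14 S100 genes of chromosome 3 in their order on the chromosome (signs give the strand), with a point per library and lines for group means. Within the first cluster, genes with group means above 80 CPM per kb stand beside genes with group means below 1, and S100a11 and S100a10 lie past the dotted line that marks the gap.

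Promoter windows show what sequence lies at the starts of the highest and the lowest members. They come from RefSeq (GRCm38.p6), run from 250 bases before to 50 bases after the annotated start, and were found for 8 of the 10 genes. S100a10 and S100a14 had none. Capitals mark matches, on either strand, to the TATA box motif TATAAA, the AP-1 motif TGANTCA or the GC box motif GGGCGG. The windows of the most abundant pair with a window, S100a11 and S100a6, are given with those of S100a8 and S100a9, the pair near 0.
S100a11, chr3:93520246-93520545, plus strand: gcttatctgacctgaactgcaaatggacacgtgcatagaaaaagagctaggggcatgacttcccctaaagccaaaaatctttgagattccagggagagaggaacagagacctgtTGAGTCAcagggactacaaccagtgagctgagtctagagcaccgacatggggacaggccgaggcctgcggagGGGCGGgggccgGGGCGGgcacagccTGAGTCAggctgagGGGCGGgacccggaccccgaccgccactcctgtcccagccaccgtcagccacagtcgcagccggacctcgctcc
S100a6, chr3:90612644-90612943, plus strand: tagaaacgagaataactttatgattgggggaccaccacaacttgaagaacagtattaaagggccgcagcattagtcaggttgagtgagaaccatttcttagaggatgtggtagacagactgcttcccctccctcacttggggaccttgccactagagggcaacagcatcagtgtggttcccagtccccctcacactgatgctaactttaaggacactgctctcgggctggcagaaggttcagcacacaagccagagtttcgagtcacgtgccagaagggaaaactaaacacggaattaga
S100a8, chr3:90668821-90669120, plus strand: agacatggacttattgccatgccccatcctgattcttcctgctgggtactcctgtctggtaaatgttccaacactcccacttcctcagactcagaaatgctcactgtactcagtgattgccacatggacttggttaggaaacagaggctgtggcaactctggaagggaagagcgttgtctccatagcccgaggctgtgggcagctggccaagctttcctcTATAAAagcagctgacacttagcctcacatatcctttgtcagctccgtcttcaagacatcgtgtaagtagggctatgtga
S100a9, chr3:90695672-90695971, minus strand: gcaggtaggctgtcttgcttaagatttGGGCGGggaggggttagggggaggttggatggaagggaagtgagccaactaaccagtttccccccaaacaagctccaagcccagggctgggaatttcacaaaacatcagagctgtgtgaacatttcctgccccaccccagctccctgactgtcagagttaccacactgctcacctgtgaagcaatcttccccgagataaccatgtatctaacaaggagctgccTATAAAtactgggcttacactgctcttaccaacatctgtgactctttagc
The S100a11 window held 2 AP-1 motifs, 3 GC boxes and 15 CpG dinucleotides. S100a6 had none of the 3 motifs in its window and 6 CpG. S100a8 had a TATA box 30 bases before its start and 4 CpG, and S100a9 a TATA box at its annotated start, 1 GC box and 2 CpG. Of the low but detected members, S100a4 had a TATA box 31 bases before its start, while the windows of S100a1 and S100a13, which share 204 bases, had none of the 3 motifs and 11 and 14 CpG. S100a16 has 2 annotated starts, and an AP-1 motif and a GC box lay in the window of 1 of them. Over all 32851 windows, 13.6% held the TATA box, 7.81% the AP-1 motif and 35.7% the GC box, and the median was 7 CpG. These matches are descriptions of letters and not binding sites.

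Between ibuprofen and untreated mice none of the 8 tested S100 genes passed the test, and 6 had lower and 2 had higher means with ibuprofen. limma on log2(CPM + 1), with Benjamini-Hochberg adjustment over all 16684 tested genes, called 0 of the 8 at an adjusted p under 0.05, against a background of 0.521% of all tested genes, and 0.222% called lower. At an unadjusted p under 0.05 there was 1, S100a10, against 17.9% of all tested genes and 6.17% in the same direction. The median fold change of the 8 was -0.22 on the log2(CPM + 1) scale, ibuprofen minus untreated, against 0.04 for all tested genes, of which 43.7% had negative values. These fold changes come from 3 libraries a group, and the labels do not say whether each came from its own animal, so the p-values reflect spread between libraries that may be technical.

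S100a10, whose product ties annexin A2 into a complex at the cell membrane, had the largest fold change of the 8 genes, except with library weights or without untreated replicate 3, where that of S100a4 was as large or larger. It had 157, 147 and 135 CPM in ibuprofen replicates 1, 2 and 3, and 232, 189 and 154 CPM in untreated replicates 1, 2 and 3. Untreated replicate 1 was the highest library, and the groups overlapped because untreated replicate 3 fell just below ibuprofen replicate 1. The fold change was -0.37 ± 0.14 (SE), with a 95% interval of -0.68 to -0.07 and a limma adjusted p of 0.209. Without untreated replicate 1 it was -0.23, and without untreated replicate 3 it was -0.52 with a limma adjusted p of 0.0517, in a fit that called 2.77% of all genes and 1.1% as lower. With weights that count variable libraries less it was -0.35 and passed the test (limma adjusted p = 0.0295), in a fit that called 14.8% of all genes and 5.99% as lower. With replicate numbers as a block, 2.6% of all genes were called, 0.809% as lower, and none of the 8. After correction for GC content the fold change was -0.38, as large as before.

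S100a6, a partner of the calcyclin-binding protein Cacybp, differed widely among the untreated libraries. It had 249, 275 and 222 CPM in ibuprofen replicates 1, 2 and 3, against 371, 330 and 227 CPM in untreated replicates 1, 2 and 3. Untreated replicate 3 lay among the ibuprofen libraries and the other untreated libraries above them. The fold change was -0.29 ± 0.17 (SE) with a 95% interval of -0.65 to 0.08 and a limma adjusted p of 0.378. Without untreated replicate 3 it was -0.50 (limma adjusted p = 0.0534), and without untreated replicate 1 it was -0.14.

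S100a11 had nearly the same mean in both groups. It had 384, 398 and 389 CPM in ibuprofen replicates 1, 2 and 3, and 339, 414 and 409 CPM in untreated replicates 1, 2 and 3. Here untreated replicate 1 was the lowest library, where for S100a6, S100a10, S100a13 and S100a14 it was the highest. The fold change was 0.02 ± 0.11 (SE), with a 95% interval of -0.22 to 0.25 and a limma adjusted p of 0.95. Its sign was negative with median-of-ratios scaling, library weights or GC correction and without untreated replicate 1. The processed pseudogene S100a11-ps on chromosome 12 averaged 0.125 CPM over the 6 libraries.

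S100a14 and S100a16, neighbours that are both typical of epithelia, had similar values. S100a14 had 145, 150 and 152 CPM in ibuprofen replicates 1, 2 and 3, against 184, 171 and 160 CPM in untreated replicates 1, 2 and 3. All ibuprofen libraries lay below all untreated ones, the single case among the 8 genes. Groups that do not overlap, with lower values in ibuprofen libraries, were found in 8.73% of all tested genes, and the fold change of -0.21 ± 0.10 (SE) had a limma adjusted p of 0.294. S100a16 had 149, 157 and 131 CPM in ibuprofen replicates 1, 2 and 3, and 179, 180 and 154 CPM in untreated replicates 1, 2 and 3. Its groups overlapped between ibuprofen replicate 2 and untreated replicate 3, and the fold change was -0.23 ± 0.11 (SE, limma adjusted p = 0.294). The 95% intervals were -0.42 to 0.01 for S100a14 and -0.48 to 0.01 for S100a16.

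The members of the middle tier rested on 16 to 73 reads per library, which limits what could be seen. S100a13, which takes part in the export of signals that lack a secretion sequence such as FGF1, had 6.65, 8.69 and 7.45 CPM in ibuprofen replicates 1, 2 and 3. Its untreated replicates 1, 2 and 3 had 9.29, 8.39 and 7.60 CPM, and the groups overlapped (-0.14 ± 0.18, SE, limma adjusted p = 0.705). S100a1, best known from heart and skeletal muscle, had 6.25, 8.84 and 5.95 CPM in ibuprofen replicates 1, 2 and 3, against 5.20, 6.55 and 5.85 CPM in untreated replicates 1, 2 and 3. Ibuprofen replicate 2 was the highest library, and the fold change of 0.21 ± 0.20 (SE) had a limma adjusted p of 0.595. S100a4, a binding partner of non-muscle myosin that is typical of fibroblasts and leukocytes, had 2.95, 2.50 and 2.40 CPM in ibuprofen replicates 1, 2 and 3, and 4.10, 4.25 and 1.90 CPM in untreated replicates 1, 2 and 3. Untreated replicate 3 was the lowest of all, and the fold change was -0.24 ± 0.25 (SE, limma adjusted p = 0.636). The 95% intervals were -0.52 to 0.25 for S100a13, -0.23 to 0.65 for S100a1 and -0.80 to 0.32 for S100a4. Single libraries moved these values. S100a4 was -0.52 without untreated replicate 3, -0.11 without untreated replicate 1 and -0.09 without untreated replicate 2. S100a1 was 0.05 without ibuprofen replicate 2 and 0.14 without untreated replicate 1. S100a13 was -0.06 without ibuprofen replicate 1, -0.23 without ibuprofen replicate 2 and -0.07 without untreated replicate 1.

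**Figure D3:**
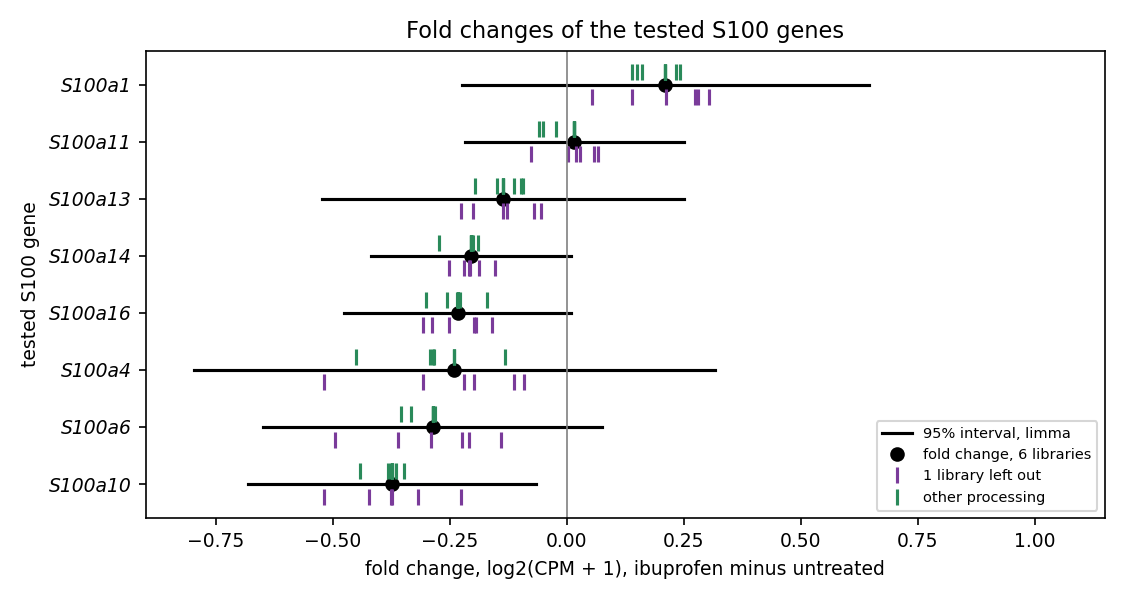
Fold changes of the 8 tested S100 genes on the log2(CPM + 1) scale, ibuprofen minus untreated, with 95% limma intervals and, as ticks, the values with 1 library left out or other processing. Of the 8 intervals, only that of S100a10 (-0.68 to -0.07) lies below 0, before adjustment for multiple testing.

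S100a8 and S100a9, the calprotectin pair, were near the limit of detection in both groups. S100a8 was listed at 0.25, 0 and 0 CPM in ibuprofen replicates 1, 2 and 3, and at 0, 0 and 0.35 CPM in untreated replicates 1, 2 and 3. This corresponds to 2 estimated reads with ibuprofen and 3 untreated. S100a9 was listed at 0.4, 0.15 and 0.15 CPM in ibuprofen replicates 1, 2 and 3 and at 0, 0.15 and 0.25 CPM in untreated replicates 1, 2 and 3, or 5 reads with ibuprofen and 3 reads untreated. No difference between the groups was detectable at this depth. Over all 48315601 estimated reads, the exact Poisson 95% interval for S100a8 was 0.0335 to 0.242 CPM and for S100a9 0.0714 to 0.327 CPM, counting error only. A count of 0 allows up to 0.342 to 0.472 CPM, depending on the library. Per kilobase, S100a11 was 2182 times the upper end of the S100a8 interval.

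Neutrophils and other myeloid cells are rich in S100a8 and S100a9, and their markers were low as well. Of 18 neutrophil and myeloid markers, 15 stayed below 1 CPM in every library, and Ly6g, Retnlg, Adgre1 and Fcgr3 were at 0 in all 6. The summed level was 6.45 to 12.8 CPM in ibuprofen libraries and 6.15 to 9.39 CPM in untreated libraries, mostly from the macrophage receptor gene Csf1r (5.73 ± 2.49 with ibuprofen and 5.30 ± 1.39 CPM untreated). Cd14 came next at 0.749 ± 0.05 with ibuprofen and 0.850 ± 0.259 CPM untreated. Itgam had 0.25, 0.3 and 1.60 CPM in ibuprofen replicates 1, 2 and 3, and 0 in all untreated libraries. Elane had 0.75, 0.4 and 0.80 CPM in ibuprofen replicates 1, 2 and 3. Its untreated replicates 1, 2 and 3 had 0.35, 0.25 and 0.15 CPM. Itgam and Elane were thus higher with ibuprofen without overlap, but both were too low to be tested. For the 11 fibroblast markers the sum was 353 to 565 CPM with ibuprofen and 337 to 378 CPM untreated. The most abundant were Fbln1 (309 ± 73.6 with ibuprofen and 289 ± 15.9 CPM untreated) and Dcn (68.0 ± 17.8 with ibuprofen and 48.1 ± 19.6 CPM untreated). Ibuprofen replicate 1 had the highest fibroblast sum, with Col1a1 at 29.0 CPM, and S100a4 there was 2.95 CPM, the highest of the ibuprofen libraries. Untreated replicates 1 and 2, with more S100a4, had fibroblast sums of 337 and 378 CPM, of which Fbln1 gave 275 and 285 CPM. Untreated replicate 3, with the least S100a4, had a sum of 356 CPM, of which Fbln1 gave 306 CPM. Col1a1, Col1a2, Col3a1, Dcn, Lum, Pdgfra and Pdgfrb were higher in untreated replicates 1 and 2 than in untreated replicate 3. Fbln1 and Postn were lower there, and Fn1 and Thy1 were higher in untreated replicate 2 only. The part of fibroblast RNA in the S100a4 level was not tested. Sums stayed low for markers of dendritic and Langerhans cells (15.6 to 22.4 CPM with ibuprofen and 17.0 to 19.1 CPM untreated, led by H2-Ab1 and H2-Eb1), of which Cd207 was at 0 in all libraries. They were 0.8 to 2.75 CPM with ibuprofen and 0.6 to 1.35 CPM untreated for lymphoid cells, led by Cd79a and Cd3e, and Ms4a1, Ncr1 and Nkg7 were at 0. For muscle, where S100a1 is abundant, the sum was 11.1 to 14.8 CPM with ibuprofen and 13.3 to 20.2 CPM untreated, led by Tagln and Tnnt3. Of the 5 tested muscle markers, 2 had positive fold changes, Tagln (0.08) and Tnnt3 (0.06), and 3 had negative ones, with 0 calls. Acta1 had 0.433 ± 0.116 CPM with ibuprofen and 2.58 ± 1.55 CPM untreated. Ckm had 0.833 ± 0.104 CPM with ibuprofen and 1.85 ± 0.721 CPM untreated. Acta1 and Ckm were lower without overlap, as were 8.73% of all tested genes. Among the untested muscle markers, Des and Actn2 were lower without overlap, and Myh11 and Myl1 overlapped. The share over tested genes does not cover these low genes. The endothelial sum was 17.0 to 20.3 CPM with ibuprofen and 15.1 to 16.5 CPM untreated, led by Pecam1 and Vwf. Schwann and melanocyte markers, led by Mbp and Pmel, summed to 106 to 120 CPM with ibuprofen and 104 to 110 CPM untreated.

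Replicates of the abundant members differed by more than counting error, mainly in the untreated group. The coefficient of variation of S100a6 was 10.6% with ibuprofen and 24.1% untreated, where counting error alone gives 2.22% and 2.04% in those groups. For S100a10 it was 7.36% with ibuprofen and 20.3% untreated, and for S100a11 1.8% and 10.8% in the same groups. Counting error alone gives 2.89% and 2.59% for S100a10, and 1.77% and 1.8% for S100a11, again ibuprofen before untreated. The spread of S100a14 with ibuprofen, 2.36%, was within the counting error of 2.86%, and untreated it was 6.93%. S100a16 varied alike in both groups, by 9.13% with ibuprofen and 8.71% untreated.

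The intracellular partners of S100 proteins gave 0 calls among 17 tested of 21 listed, with 11 negative and 6 positive fold changes and a median of -0.11. Over all tested genes, 0.521% were called, 43.7% had negative fold changes and the median was 0.04. Anxa2, which forms the S100a10 complex, had 544, 634 and 568 CPM in ibuprofen replicates 1, 2 and 3, and 932, 831 and 650 CPM in untreated replicates 1, 2 and 3. The groups did not overlap, and the fold change was -0.45 ± 0.14 (SE, limma adjusted p = 0.141). Lower values without overlap were found in 5 of the 17 tested partners, Anxa2, Anxa6, Cacybp, Ahnak and Myh9. The share over all tested genes was 8.73%. Another 2 partners, among them Ppfibp1, had higher values without overlap, as had 2367 of all 16684 tested genes. Cacybp, the S100a6 partner, had 50.6, 49.5 and 42.8 CPM in ibuprofen replicates 1, 2 and 3, against 56.0, 64.8 and 65.2 CPM in untreated replicates 1, 2 and 3 (-0.37 ± 0.12, SE, limma adjusted p = 0.153). Anxa6 had a fold change of -0.44 ± 0.12 (SE, limma adjusted p = 0.129). Ppfibp1, a liprin that binds S100a4, had a fold change of 0.28 ± 0.11 (SE, limma adjusted p = 0.231). The most abundant partner was Ahnak, a giant scaffold held by the S100a10 and annexin A2 complex, at 5215 ± 189 CPM with ibuprofen and 5768 ± 161 CPM untreated (limma adjusted p = 0.567). Anxa1, the S100a11 partner, had 1581 ± 151 CPM with ibuprofen and 1614 ± 16.8 CPM untreated. Myh9, the non-muscle myosin bound by S100a4, had 1063 ± 27 CPM with ibuprofen and 1150 ± 9.08 CPM untreated (limma adjusted p = 0.561).

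Ratios within a library set each S100 gene against its partner in the same RNA. S100a10 to Anxa2, both per kilobase, was 0.888, 0.712 and 0.733 in ibuprofen replicates 1, 2 and 3 and 0.768, 0.7 and 0.731 in untreated replicates 1, 2 and 3, so the groups overlapped. S100a11 to Anxa1 was 1.55, 1.34 and 1.35 in ibuprofen replicates 1, 2 and 3, against 1.2, 1.45 and 1.46 in untreated replicates 1, 2 and 3, and overlapped too. S100a6 to Cacybp averaged 9.14 ± 0.563 with ibuprofen and 8.86 ± 2.76 untreated. S100a10 to S100a11, its neighbour at the second site, was 0.172, 0.155 and 0.147 in ibuprofen replicates 1, 2 and 3, and 0.289, 0.193 and 0.159 in untreated replicates 1, 2 and 3. S100a6 to S100a11 was 0.242, 0.259 and 0.214 in ibuprofen replicates 1, 2 and 3, against 0.409, 0.298 and 0.207 in untreated replicates 1, 2 and 3. In both ratios untreated replicate 1 stood highest and untreated replicate 3 lay among the ibuprofen values or below them.

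**Figure D4:**
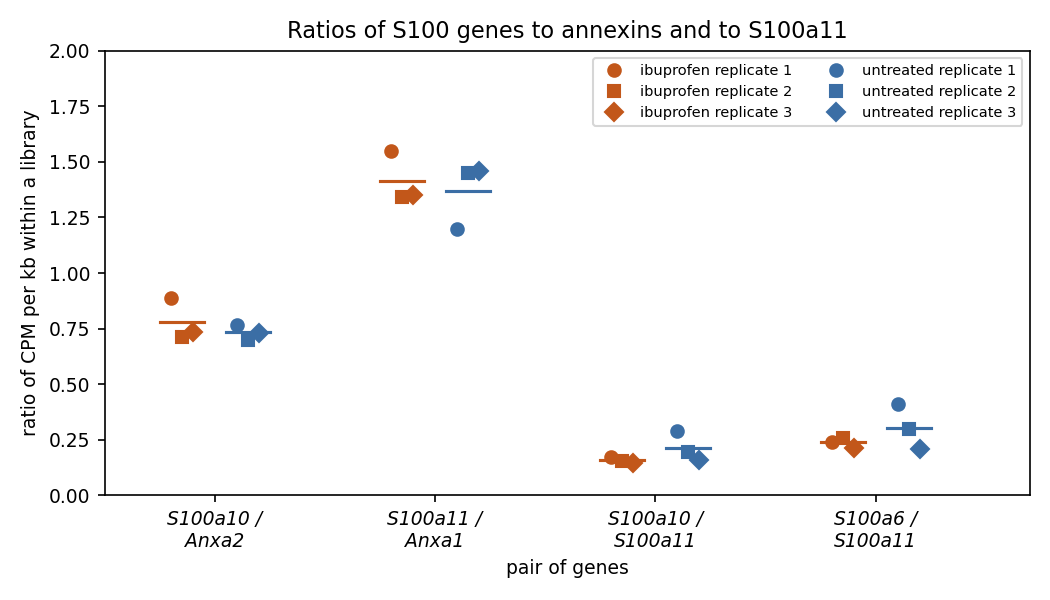
Ratios of CPM per kb between pairs of genes within each library, for 3 ibuprofen and 3 untreated libraries, with lines for group means. S100a10 to Anxa2 lies between 0.7 and 0.888 in all 6 libraries, while S100a10 to S100a11 runs from 0.147 to 0.289 and is highest in untreated replicate 1.

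Receptors reported for secreted S100 proteins gave 0 calls among 5 tested of 8 listed. Of the 5, 4 had positive fold changes, and the list's median was 0.27. Over all tested genes, 0.521% were called, 9400 of 16684 had positive fold changes and the median was 0.04. Alcam, an adhesion molecule reported to bind S100a8 and S100a9, had 240, 171 and 198 CPM in ibuprofen replicates 1, 2 and 3, and 101, 151 and 146 CPM in untreated replicates 1, 2 and 3. The groups did not overlap, and the fold change was 0.62 ± 0.17 (SE, limma adjusted p = 0.116). Higher values without overlap were found in 3 of the 5 tested receptor genes, Alcam, Nptn and Tlr4, and in 2367 of all 16684 tested genes. Nptn, neuroplastin, had 135 ± 10.8 CPM with ibuprofen and 113 ± 9.96 CPM untreated (0.27 ± 0.11, SE, limma adjusted p = 0.24). Bsg, also called CD147, had 132 ± 5.44 CPM with ibuprofen and 141 ± 16.1 CPM untreated. Tlr4, a pattern receptor, was low at 12.3 ± 0.621 CPM with ibuprofen and 10.6 ± 0.2 CPM untreated (limma adjusted p = 0.507), and Mcam had 6.50 ± 1.86 CPM with ibuprofen and 5.05 ± 1.51 CPM untreated (limma adjusted p = 0.512). Ager, which encodes the receptor RAGE, was too low to be tested, at 0.899 ± 0.39 CPM with ibuprofen and 0.866 ± 0.0764 CPM untreated. Cd36 and Cd33 were also too low to be tested.

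Of the remaining S100 genes, 7 of 8 listed were in the table and 2 were tested, with 0 calls, against 0.521% of all tested genes. S100g, the calbindin of calcium-absorbing epithelia, had 4.80, 3.15 and 2.10 CPM in ibuprofen replicates 1, 2 and 3, and 4.10, 2.45 and 2.45 CPM in untreated replicates 1, 2 and 3 (limma adjusted p = 0.873). It lies on chromosome X and overlaps Ctps2 on the other strand. S100a3 had 1.35, 1.45 and 1.30 CPM in ibuprofen replicates 1, 2 and 3, against 1.75, 0.7 and 1.05 CPM in untreated replicates 1, 2 and 3 (limma adjusted p = 0.753), and its gene model contains that of S100a2. The highest single library was 0.35 CPM for S100a2, S100a7a and S100b, 0.2 CPM for S100a5 and 0.15 CPM for S100z. Each of these rested on at most 7 reads over the 6 libraries.

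The genes that fuse an S100 domain to a long repeat, known from cornified epithelia, were mostly near 0. Of 7 listed 2 were tested and 0 called, against 0.521% of all tested genes. Trichohyalin, Tchh, had 42.4, 38.2 and 64.0 CPM in ibuprofen replicates 1, 2 and 3, and 31.9, 34.4 and 43.2 CPM in untreated replicates 1, 2 and 3 (0.37 ± 0.19, SE, limma adjusted p = 0.327). Repetin, Rptn, had 1.25, 0.55 and 7.65 CPM in ibuprofen replicates 1, 2 and 3, against 0.5, 0.15 and 1.20 CPM in untreated replicates 1, 2 and 3, with a limma adjusted p of 0.336. Ibuprofen replicate 3 was the highest library for both genes. The highest single library was 1.30 CPM for Hrnr, also ibuprofen replicate 3, 0.4 CPM for Flg, 0.35 CPM for Crnn, 0.25 CPM for Tchhl1 and 0.15 CPM for Flg2.

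Alarm and antimicrobial genes that often accompany S100a8 and S100a9 in activated epithelium were partly abundant here. Of 25 listed 23 were in the table and 14 were tested, with 0 calls, 8 negative and 6 positive fold changes and a median of -0.07. Over all tested genes, 0.521% were called, 43.7% had negative fold changes and the median was 0.04. The keratin genes of activated epithelium led the list. Krt17 had 2392 ± 25.1 CPM with ibuprofen and 2541 ± 486 CPM untreated, Krt6a 1779 ± 126 CPM with ibuprofen and 2129 ± 364 CPM untreated (limma adjusted p = 0.378), and Krt6b 191 ± 20.2 CPM with ibuprofen and 221 ± 52.4 CPM untreated. Cxcl1, a neutrophil-attracting chemokine, had 17.7 ± 2.26 CPM with ibuprofen and 12.3 ± 6.29 CPM untreated (limma adjusted p = 0.337). Slpi, a secreted protease inhibitor, had 1.85, 1.95 and 13.3 CPM in ibuprofen replicates 1, 2 and 3, against 1.75, 0.949 and 2.80 CPM in untreated replicates 1, 2 and 3 (limma adjusted p = 0.406). Sprr1a, a cornified envelope precursor, was also highest in ibuprofen replicate 3, with 141, 126 and 257 CPM in ibuprofen replicates 1, 2 and 3 and 90.7, 145 and 151 CPM in untreated replicates 1, 2 and 3 (limma adjusted p = 0.421). In ibuprofen replicate 3, S100a8 was at 0 and S100a9 at 0.15 CPM.

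Calcium sensors with EF hands outside the S100 family gave 0 calls among 20 tested of 23 listed, against 0.521% of all tested genes. Their fold changes were negative in 15 and positive in 5, with a median of -0.13. Of all tested genes, 43.7% had negative values. Calm2, a calmodulin gene, had 250 ± 31.5 CPM with ibuprofen and 253 ± 29.9 CPM untreated. The calpain small subunit gene Capns1 had 167 ± 2.49 CPM with ibuprofen and 192 ± 13.2 CPM untreated (limma adjusted p = 0.304), and its relative Capns2 had 43.5 ± 2.44 CPM with ibuprofen and 33.5 ± 2.66 CPM untreated (0.37 ± 0.12, SE, limma adjusted p = 0.155). Sri, sorcin, had a fold change of -0.25 ± 0.12 (SE, limma adjusted p = 0.3) and the low Calml4 one of 0.61 ± 0.23 (SE, limma adjusted p = 0.208).

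The pattern of S100a10 over the 6 libraries was shared by many genes. Among 10255 tested genes with a mean of at least 5 CPM, 509 had a Pearson r above 0.9 with it on the log2(CPM + 1) scale. The 5 most alike were Slc39a7, a zinc transporter, Mrps7, of the mitochondrial ribosome, Gtf2h5, of the repair and transcription factor TFIIH, Dcaf15, a ubiquitin ligase receptor, and Dgkz, a diacylglycerol kinase. Slc39a7 had 40.7, 39.1 and 36.5 CPM in ibuprofen replicates 1, 2 and 3, and 57.2, 49.5 and 42.7 CPM in untreated replicates 1, 2 and 3, with untreated replicate 1 highest as for S100a10. These genes were picked for their likeness, so no test applies, and they share the libraries with S100a10. Transcript GC content was 51.4% for S100a10, 57.5% for Slc39a7, 55.4% for Mrps7, 42.5% for Gtf2h5, 58.7% for Dcaf15 and 59.6% for Dgkz, against a median of 49.3% for tested genes. The part of the libraries' GC differences in this likeness was not tested.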

How the data were processed

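Oesophagus was digested and sorted on EpCAM, and its RNA went through the Ovation Solo kit to a NovaSeq sequencer, per the labels' protocols. The deposited values are CPM per gene, as the file headers name them, scaled by the authors to the same sum in each library. Tools listed without roles in the submitters' processing notes are HTSeq, edgeR, Cell Ranger 3.1.0 and STAR 2.5.3a, with GRCm38 and mm10 as builds. Annotation release, strand setting and filters were not given in the sources used here, so overlapping genes are uncertain. Library names in the file headers carry one code in all ibuprofen libraries and another in all untreated libraries, so whatever the codes mark cannot be told apart from treatment. Values lie on steps. Reads were estimated as whole numbers that, scaled and rounded up to a step, return at least 99.83% of the values above 0 exactly. Without the rounding up, 35.5% to 47.4% of the values of up to 20 reads lay within 0.1 reads of a whole number. Reads are thus estimates under an assumed rounding, and were used for depth, detection limits (3 reads for a 0) and counting error only, and no count model was fitted.

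Genes with at least 1 CPM in at least 3 libraries were tested with limma 3.58.1 (R 4.3.3), using its trended variance prior, on log2(CPM + 1), a scale that understates changes of low genes. Benjamini-Hochberg adjustment ran over all 16684. On simulated libraries of 3 against 3, with 16875 genes tested, 83% of 2-fold and 100% of 4-fold changes were called, with 6 unchanged genes called. Changes were placed only in genes with a mean of at least 5 CPM. Every gene had the same fixed dispersion, and libraries differed in depth but not in GC content or otherwise. These rates therefore do not carry over to the real libraries, or to the smaller fold changes of the S100 genes. Lengths and positions came from GENCODE M21 (GRCm38), where 52489 of 52636 IDs were found. Alternatives covered pseudocount, filter, scaling, a replicate block, weights, shrinkage, GC content and each library left out. The members and lists were chosen with earlier results of these data known. Named were all members, the other S100 and fused genes, and per partner list any called gene, the 4 of smallest p and the 3 most abundant. From each list of cell markers the 2 most abundant were named, and by likeness to S100a10 the 5 nearest genes. Further epithelial, immune, fibroblast and muscle markers were named after their values were seen. Likeness to S100a8 was also planned, but S100a8 was too low to be tested and no gene is named for it. One gene that this rule names is not reported here.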

Additional observations from a re-analysis of the deposited data

How the results depend on the processing

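Over 15 alternatives, none of the 8 tested S100 genes was called except S100a10 with library weights. S100a4 could not be tested with a filter of 5 CPM. Among 119 refitted values, 114 kept the direction and the side of the threshold, and 4, all of S100a11, changed sign: -0.052 with median-of-ratios scaling, -0.06 with library weights, -0.024 with GC correction and -0.076 without untreated replicate 1. With 1 library left out it ranged from -0.076 to 0.067. Over all alternatives the fold change lay between -0.52 and -0.23 for S100a10, -0.50 and -0.14 for S100a6, -0.52 and -0.09 for S100a4, 0.05 and 0.30 for S100a1, -0.23 and -0.06 for S100a13, -0.27 and -0.15 for S100a14, and -0.31 and -0.16 for S100a16. The count of called genes, 87 at first, was 52 with no filter, 434 with the replicate block, 2462 with library weights, and 4 to 456 with 1 library left out. Leaving out ibuprofen replicate 1 gave 23 genes and ibuprofen replicate 3 gave 44. Leaving out untreated replicate 1 gave 4, replicate 2 of that group 5 and replicate 3 of that group 456. The cause was not tested. Same-numbered libraries had correlations of 0, 0.08 and 0.153 between their deviations from group means, and not every library correlated best with its own number, so numbers were not taken as pairs. Under the replicate block S100a10 stayed at -0.37 (limma adjusted p = 0.107), and no S100 gene changed its call. S100a8 and S100a9 had 5 and 8 estimated reads in all and fell below the filter of the main fit. With no filter the fold change was -0.037 for S100a8 (limma adjusted p = 0.917) and 0.122 for S100a9 (limma adjusted p = 0.681). So few reads do not allow a difference to be judged.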

Other observations

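S100pbp, whose human counterpart binds S100P, belongs to no list used above and was chosen after its values were seen. It had 28.8, 28.3 and 39.4 CPM in ibuprofen replicates 1, 2 and 3, and 19.7, 20.9 and 24.6 CPM in untreated replicates 1, 2 and 3. All ibuprofen libraries lay above all untreated ones, and the fold change was 0.53 ± 0.16 (SE, limma adjusted p = 0.136). Higher values without overlap were found in 2367 of all 16684 tested genes.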
